A study of Mus musculus with 4 samples.

Results

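Creatine kinase and adenylate buffering genes were followed in normal mouse skeletal muscle. These genes were chosen by name, 9 in all, and a probe set counted where the platform annotation assigned it to 1 of them alone. By this rule 8 genes were measured with 11 probe sets, of 12393 genes on the arrays, and the brightest probe set stood for each gene. Ampd1, the AMP deaminase of skeletal muscle fibres, had no such probe set and was not analysed here. The samples were 4 arrays of bulk muscle from wild type mice on a mixed 129S4/SvJae and C57BL/6 background, titled skm4, skm5, nm7 and nm8, with 1 array per sample and no treatment in the labels. The labels give neither the animals' age, nor which muscle was taken, nor whether a sample came from 1 animal, and the meaning of the title prefixes skm and nm is not given either. All 4 form 1 group, so the prefix is the only label that splits them, and it was tested as a possible batch and as nothing else. The study's sarcomas were not analysed here.

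In muscle, ATP is kept near constant during contraction by enzymes that move phosphate between nucleotides and creatine. Creatine kinases in the cytosol (Ckm, Ckb) and on the mitochondrial inner membrane (Ckmt1, Ckmt2) pass phosphate between ATP and creatine, which muscle takes up from blood through Slc6a8 and which Gatm and then Gamt synthesise, mainly in kidney and liver. When ADP builds up, adenylate kinase (Ak1) makes ATP and AMP from it, and AMP deaminases (Ampd1, Ampd3) convert the AMP to IMP, which the purine nucleotide cycle returns to AMP.

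Values are log2 expression values after robust multi-array averaging (RMA), on which a difference of 1 is 2-fold, and they compare arrays within a probe set, not one gene with another. The array medians were 7.26 to 7.3, the highest value on any array was 14.76, and control probe sets for the bacterial transcript TrpnX, which mark the background, read 3.40 to 4.05. The tissue label was checked against 12 genes that define skeletal muscle, such as Acta1, Mylpf and Ryr1. All 12 were measured and read between 13.40 and 14.75 on every array, close to the top of the scale.

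The measured genes differed in how far they varied and shared no direction. The muscle creatine kinases Ckm and Ckmt2, the brain-type kinase Ckb and the creatine transporter Slc6a8 stayed within 0.29 on the log2 scale over the 4 arrays, while Ak1, Ampd3, Ckmt1 and Gamt spanned 0.44 to 0.89. No member had a range over 1, which 5.98% of all genes had. Their median SD was 0.18, beside 0.19 over all genes (n = 4 arrays). Between the prefixes, 0 of the 8 genes passed limma's moderated test, fitted over all genes, at an adjusted p under 0.05. Of all genes, 0.0323% did, 0.0242% higher and 0.00807% lower in skm. An unadjusted p under 0.05 was reached by 1 of 8, Ak1, and by 23.5% of all genes. The prefixes did not overlap in 4 of the 8 genes, 3 higher and 1 lower in skm, beside 54.4% of all genes. The members' median absolute difference was 0.24, and 0.20 over all genes.

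**Figure D1:**
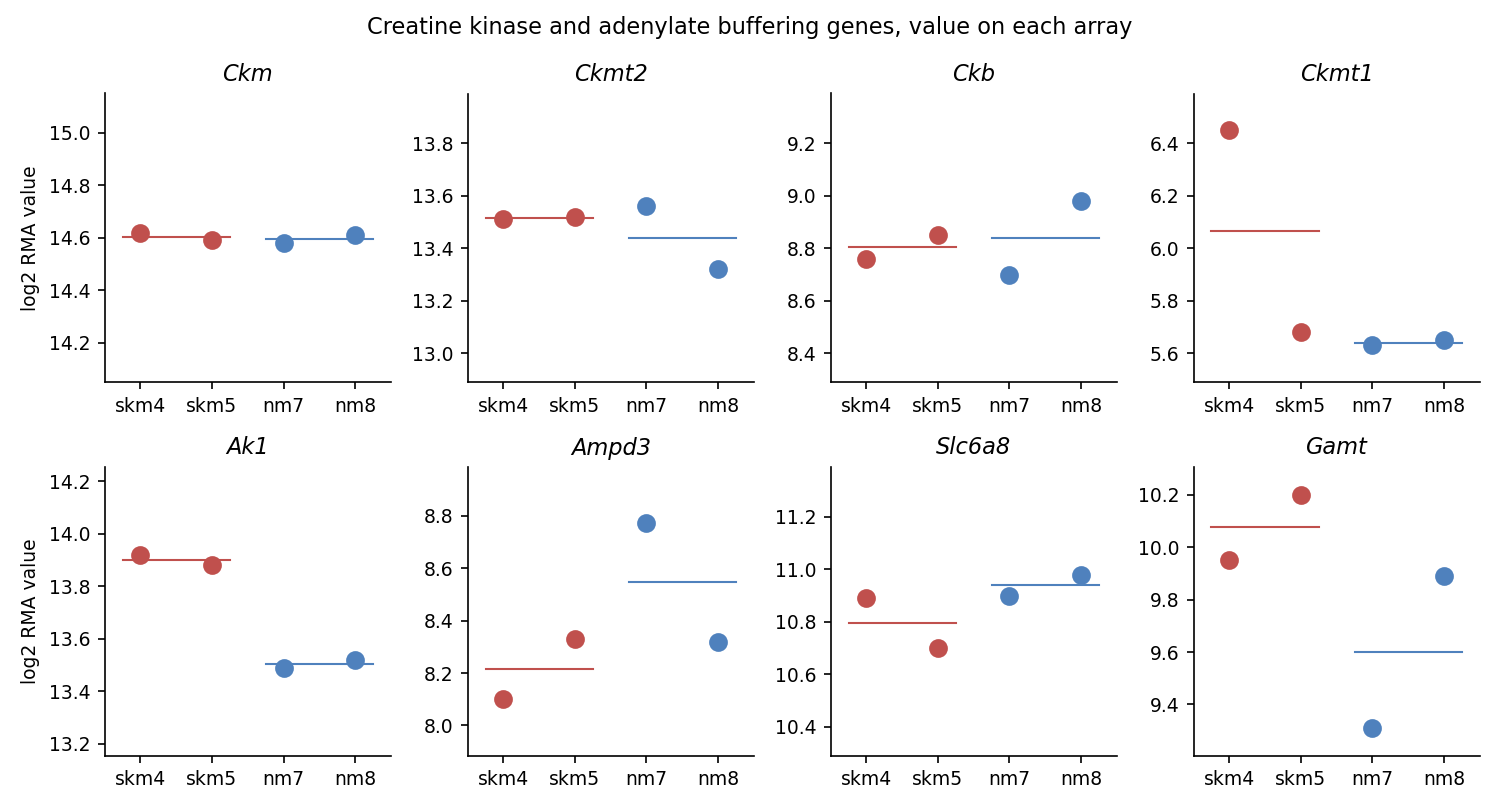
Log2 RMA value (vertical axes, each spanning 1.1 log2 units) of the 8 measured genes on each array, with skm arrays in red, nm arrays in blue and a line at the mean of each prefix. Ak1 splits into 13.92 and 13.88 in skm against 13.49 and 13.52 in nm, Ckmt1 stands out in skm4 at 6.45, and Ckm is flat.

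Ckm, the cytosolic creatine kinase of striated muscle that sits partly at the M-line, read 14.62 in skm4 and 14.59 in skm5, against 14.58 in nm7 and 14.61 in nm8. Its SD was 0.018, and only 0.21% of all genes had a smaller one. The prefixes overlapped, and the skm minus nm difference was 0.01 ± 0.12 (SE, n = 2 arrays each; limma adjusted p = 0.97), with a 95% interval of 0.824-fold to 1.23-fold. Ckm lay close to the top of the scale, where array values can be compressed, and whether its small SD comes from that was not tested. The 32 genes with a mean of 14 or more had a median SD of 0.041, and 3 of them varied less than Ckm.

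Ckmt2, the sarcomeric mitochondrial creatine kinase, read 13.51 in skm4 and 13.52 in skm5, against 13.56 in nm7 and 13.32 in nm8. The skm pair lay between the nm arrays, and nm8 was the low one. The difference was 0.08 ± 0.14 (limma adjusted p = 0.78), with an interval from -0.26 to 0.42 on the log2 scale. Of the 149 genes with a mean from 13 to 14, 79 had a smaller SD than the 0.11 of Ckmt2. Slow and oxidative fibre markers, of which 13 of 13 were measured, had medians, after centring each gene on its mean, of 0.37 in skm4 and -0.42 in skm5, against 0.28 in nm7 and -0.23 in nm8. The list was low in skm5 and nm8, and most of its genes were lowest in skm5, where Ckmt2 read 13.52. Mb, the oxygen carrier myoglobin, at 13.92, and Myoz2, at 11.01, were lowest in nm8, as Ckmt2 was. The part of these fibre markers in the values of Ckmt2 was not tested. The 17 measured mitochondrial oxidative genes had a median SD of 0.13.

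Ckb, the creatine kinase of brain and smooth muscle, read 8.76 in skm4 and 8.85 in skm5, against 8.70 in nm7 and 8.98 in nm8. Both skm values lay inside the nm range, and the difference was -0.04 ± 0.15 (limma adjusted p = 0.91), with an interval from -0.40 to 0.33. In whole muscle, fewer cells of a type and less RNA per cell cannot be told apart. The summed linear signal (each log2 value turned back to the linear scale and added over the list) of 11 of 11 smooth muscle and pericyte markers was 29126 in skm4 and 26539 in skm5, against 29851 in nm7 and 29151 in nm8, and that of 9 of 12 Schwann cell and axon markers was 6753 and 12013, against 9113 and 8797. Des, which skeletal fibres also express, made up 39.3% to 49.4% of the smooth muscle sum, which without it was 15751 in skm4 and 16106 in skm5, against 16416 in nm7 and 14737 in nm8. The part of these cells in the values of Ckb was not tested.

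Ckmt1, the mitochondrial creatine kinase of brain and epithelia, was high on a single array. It read 6.45 in skm4 and 5.68 in skm5, against 5.63 in nm7 and 5.65 in nm8. The values of skm5 and both nm arrays lay within 0.06 of each other, so the absence of overlap rests on a gap of 0.03 and the size of the difference on skm4. The difference was 0.43 ± 0.26 (limma adjusted p = 0.37), with an interval from -0.22 to 1.08, and it was 0.04 without skm4 and 0.81 without skm5. Ckmt1 was the 1 member with an array that stood apart by Dixon's ratio at its 95% critical value, as 4.21% of all genes did, and its SD was 0.40, or 0.028 without skm4. A second, dimmer Ckmt1 probe set was also highest in skm4, at 5.42, against 4.81 in skm5, 4.87 in nm7 and 5.0 in nm8. Keratinocyte markers, 11 of 11 measured, had their highest summed signal in skm5, at 2780 and with 970 in skm4, against 918 in nm7 and 1111 in nm8. Of the 9 Schwann cell and axon markers measured, 2 were highest in skm4, the neurofilament gene Nefl, which read 5.52 there and 4.92 in skm5, against 4.71 in nm7 and 4.78 in nm8, and Mag, while 6 were highest in skm5. The part of either list in the value of Ckmt1 was not tested. Of 3232 dim genes, with a mean from 5 to 7, 37.0% were highest in skm4 and 19.2% in skm5, against 17.1% in nm7 and 26.7% in nm8. Over all genes these shares were 29.3% and 20.6%, against 22.9% and 27.2%, so skm4 held the most in both, and its part in the value of Ckmt1 was not tested.

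The upstream sequence of the creatine kinase genes is shown to set the muscle isoenzymes Ckm and Ckmt2 beside the other pair. Each window holds the 250 bases before an annotated start, 5′ to 3′ in the direction of transcription, from RefSeq on GRCm38.p6. Capitals mark CANNTG, the E-box that binds basic helix-loop-helix factors such as MyoD, and TATAAA, the TATA box core, on either strand. Ckm (chr7:19410844-19411093, plus strand) has 1 E-box, whose letters are CAGCTG, 249 bases before the start.
Ckm: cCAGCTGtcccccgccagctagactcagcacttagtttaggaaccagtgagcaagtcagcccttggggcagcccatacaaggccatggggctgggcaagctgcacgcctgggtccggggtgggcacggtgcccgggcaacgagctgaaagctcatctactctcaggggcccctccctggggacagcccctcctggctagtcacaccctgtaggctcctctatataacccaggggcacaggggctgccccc
Ckmt2 (chr13:91876886-91877135, minus strand) has 4 E-boxes, at 248, 189, 153 and 107 bases before the start.
Ckmt2: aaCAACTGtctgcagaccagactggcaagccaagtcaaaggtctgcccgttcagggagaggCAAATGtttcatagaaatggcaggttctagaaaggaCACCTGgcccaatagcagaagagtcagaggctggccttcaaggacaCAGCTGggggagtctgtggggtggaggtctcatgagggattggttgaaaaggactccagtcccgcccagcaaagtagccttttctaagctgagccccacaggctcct
Ckb (chr12:111672339-111672588, minus strand) has no E-box here and a TATAAA 28 bases before the start.
Ckb: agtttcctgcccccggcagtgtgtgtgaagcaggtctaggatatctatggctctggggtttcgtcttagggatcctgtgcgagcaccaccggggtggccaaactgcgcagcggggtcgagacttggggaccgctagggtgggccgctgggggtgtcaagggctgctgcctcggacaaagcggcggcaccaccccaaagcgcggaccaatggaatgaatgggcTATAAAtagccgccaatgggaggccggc
Ckmt1 (chr2:121357526-121357775, plus strand, the first of 2 annotated starts) has a TATAAA on the opposite strand 31 bases before the start and no E-box.
Ckmt1: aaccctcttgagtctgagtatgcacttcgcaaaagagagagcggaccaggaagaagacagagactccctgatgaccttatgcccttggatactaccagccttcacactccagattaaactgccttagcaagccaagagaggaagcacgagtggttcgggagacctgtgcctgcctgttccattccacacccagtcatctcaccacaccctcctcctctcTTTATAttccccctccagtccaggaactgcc
Of 32851 promoter windows of this length, 66.2% hold a CANNTG and 12.4% a TATAAA, so both are common. Windows were found for 7 of the 8 measured genes, 13 in all, of which 8 hold a CANNTG and 2, those of Ckb and Ckmt1 shown here, a TATAAA. The E-box CACGTG, the form bound by the circadian clock activators, was in 1 of the 13 windows, the second of Ampd3, and in 6.02% of all windows. The forms CAGCTG and CACCTG, which CANNTG includes, were in 4 and 3 of the 13, and in 13% and 17.2% of all windows. TCAAGGTCA, an element of estrogen-related receptors, was in none of the 13 windows and in 0.387% of all. These counts depend on the exact letters and the window: the E-box of Ckm lies at the window's edge, its window holds TATATAA in place of TATAAA, and the second window of Ckmt1 holds neither motif. These matches are a description of letters and show no binding.

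Ak1, the main cytosolic adenylate kinase of muscle, was the member that separated the prefixes most cleanly. It read 13.92 in skm4 and 13.88 in skm5, against 13.49 in nm7 and 13.52 in nm8. Arrays of the same prefix were within 0.04 of each other, and a gap of 0.36 lay between the prefixes. The difference was 0.40 ± 0.12 (SE, n = 2 each), or 1.32-fold with a 95% interval of 1.08-fold to 1.61-fold, and it did not pass over all genes (limma unadjusted p = 0.015, adjusted p = 0.13). The call changed with the genes tested and with the variance model. In limma, the adjusted p was 0.040 when dim genes, those under the median level, were left out, where 1026 of 6197 genes passed. With an intensity trend it was 0.020, and 1110 of 12393 genes passed. Over the alternatives that kept every array it ran from 0.020 to 0.92. Among the 149 genes with a mean from 13 to 14, the median absolute difference was 0.11, and 9 genes, Ak1 among them, reached the size of Ak1. The dimmer Ak1 probe set did not show the split. It read 6.38 in skm4 and 6.05 in skm5, against 6.38 in nm7 and 6.13 in nm8, a difference of -0.04 ± 0.17, and the mean of both probe sets differed by 0.18. RefSeq gives 4 annotated start windows for Ak1. Which transcripts each probe set reads was not tested.

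Many genes lay near the pattern of Ak1 on these arrays. Patterns were compared as values centred on each gene's mean over the 4 arrays. Of 12393 genes, 971 lay within a root mean square distance of 0.1 of Ak1. The nearest were Ptdss2 at 0.0036, Actl11 at 0.01 and Sra1 at 0.01. The SD of Ak1 was 0.23, so genes with a smaller split than that of Ak1 can be counted. Of 18 listed mitochondrial oxidative genes, 17 were measured, and their summed linear signal was 181860 in skm4 and 182315 in skm5, against 155443 in nm7 and 157675 in nm8. Of the 17, 10 were higher in skm without overlap, beside 25.8% of all genes, 3 (Sdha, Cs and Ppargc1a) were lower, beside 28.6%, and 0 passed limma's test over all genes. Their part in the difference of Ak1 was not tested.

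**Figure D2:**
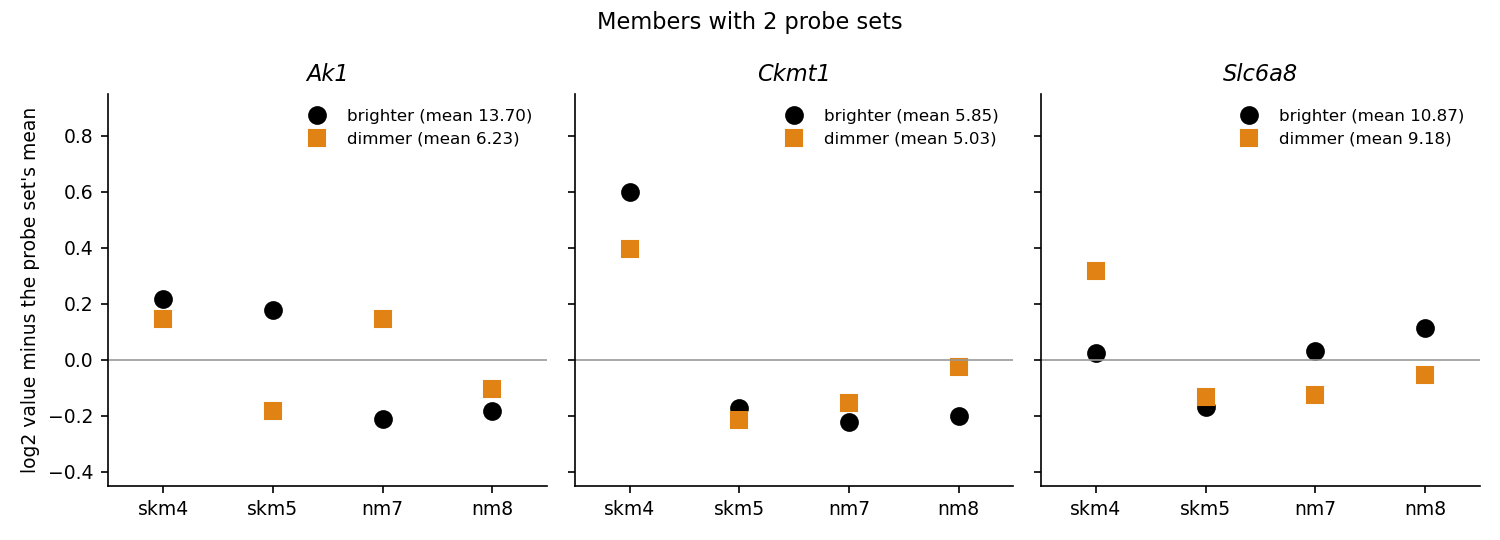
Log2 value minus the probe set's own mean (vertical axis, log2 units) on each array for the 3 members with 2 probe sets, with the brighter one as black circles and the dimmer one as orange squares. The Ckmt1 probe sets are both highest in skm4, while those of Ak1 differ in skm5 and nm7 and those of Slc6a8 differ in skm4.

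Slc6a8, the sodium-dependent creatine transporter, read 10.89 in skm4 and 10.70 in skm5, against 10.90 in nm7 and 10.98 in nm8. The skm arrays were lower without overlap, but skm4 and nm7 were almost equal. The difference was -0.15 ± 0.13 (limma adjusted p = 0.56), with an interval from -0.47 to 0.18. The dimmer probe set had the opposite sign, 0.17 ± 0.18, with 9.49 in skm4 and 9.04 in skm5, against 9.05 in nm7 and 9.12 in nm8, so skm4 was high on it alone. With the mean of both probe sets the difference was 0.01, and no direction can be given for the transporter.

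Gamt, the methyltransferase that completes creatine synthesis, had the widest range of the members, 0.89 or 1.85-fold. It read 9.95 in skm4 and 10.20 in skm5, against 9.31 in nm7 and 9.89 in nm8. Both skm arrays were above both nm arrays by a gap of 0.06, and nm7 was the low array. The difference was 0.47 ± 0.22 (limma adjusted p = 0.27), with an interval from -0.08 to 1.03, and it was 0.19 without nm7 and 0.76 without nm8. Gatm, the amidinotransferase of the preceding step, differed by the same amount with overlap. It read 8.46 in skm4 and 9.04 in skm5, against 8.50 in nm7 and 8.07 in nm8, a difference of 0.47 ± 0.24 (limma adjusted p = 0.31). Both enzymes were highest in skm5, while the lowest array was nm7 for Gamt and nm8 for Gatm.

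Ampd3, the AMP deaminase of erythrocytes that is also made in muscle, read 8.10 in skm4 and 8.33 in skm5, against 8.77 in nm7 and 8.32 in nm8. The prefixes overlapped by 0.01, nm7 was high and skm4 low. The difference was -0.33 ± 0.19 (limma adjusted p = 0.36), with an interval from -0.80 to 0.15, and it was -0.10 without nm7 and -0.55 without nm8. None of the measured markers of erythroid cells, lymphocytes or macrophages passed limma's test over all genes. Yet all 8 measured lymphocyte markers were lower in skm without overlap, with a lowest limma adjusted p of 0.051. Of 10 macrophage markers, 3 were lower without overlap, beside 28.6% of all genes. Of 4 erythroid markers, 3 were higher without overlap, beside 25.8%. Erythroid markers, 4 of 9 measured, summed to 550 in skm4 and 997 in skm5, against 404 in nm7 and 366 in nm8. Alas2, the heme synthesis enzyme of erythroid cells, made up 75.1% to 88.8% of that sum, and the other 3 genes read 4.24 to 5.90, beside 3.40 to 4.05 for the background controls. Lymphocyte markers, 8 of 10 measured, summed to 621 and 1348 in the same skm order, against 2811 in nm7 and 3170 in nm8, and 10 macrophage markers to 4979 and 7015, against 7582 and 7147. The macrophage sum was highest in nm7 and lowest in skm4, as was Ampd3, but the genes of that list differed. Lyz2, C1qa and C1qc were highest in nm7, while 3 genes were highest in skm5 and the rest, such as Csf1r, in nm8. The part of these cells in the values of Ampd3 was not tested. Values from RMA have no zero, so no marker of any list is listed at 0.

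The other genes of creatine, adenylate and ATP transport were read from a list of 42 genes, of which 32 were measured. The list also held Pfkm, Pygm and Taldo1, enzymes of sugar metabolism. Of the 32, 0 passed limma's test over all genes in either direction. An unadjusted p under 0.05 in limma was reached by 8, beside 23.5% of all genes. The prefixes did not overlap in 19 of 32, 14 higher and 5 lower in skm, beside 25.8% and 28.6% of all genes in these directions. The median difference was 0.07, and the median absolute difference was 0.17, beside 0.20 over all genes. Ampd2, the AMP deaminase of most non-muscle tissues, had the largest difference and the lowest adjusted p of the list. It read 8.58 in skm4 and 8.82 in skm5, against 9.46 in nm7 and 9.38 in nm8, without overlap, a difference of -0.72 ± 0.14 (limma adjusted p = 0.071). After it, and beside the 0.47 of Gatm, the largest differences were 0.54 ± 0.17 for Nt5e, the surface 5′-nucleotidase CD73 that makes adenosine from AMP, 0.51 ± 0.13 for Xdh, which oxidises purines to urate, and 0.45 ± 0.12 for Slc25a3, the mitochondrial phosphate carrier. Prkag2, a regulatory subunit of the AMP-activated kinase, differed by -0.43 ± 0.12. The adjusted p values of these 4 in limma ran from 0.11 to 0.14.

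**Figure D3:**
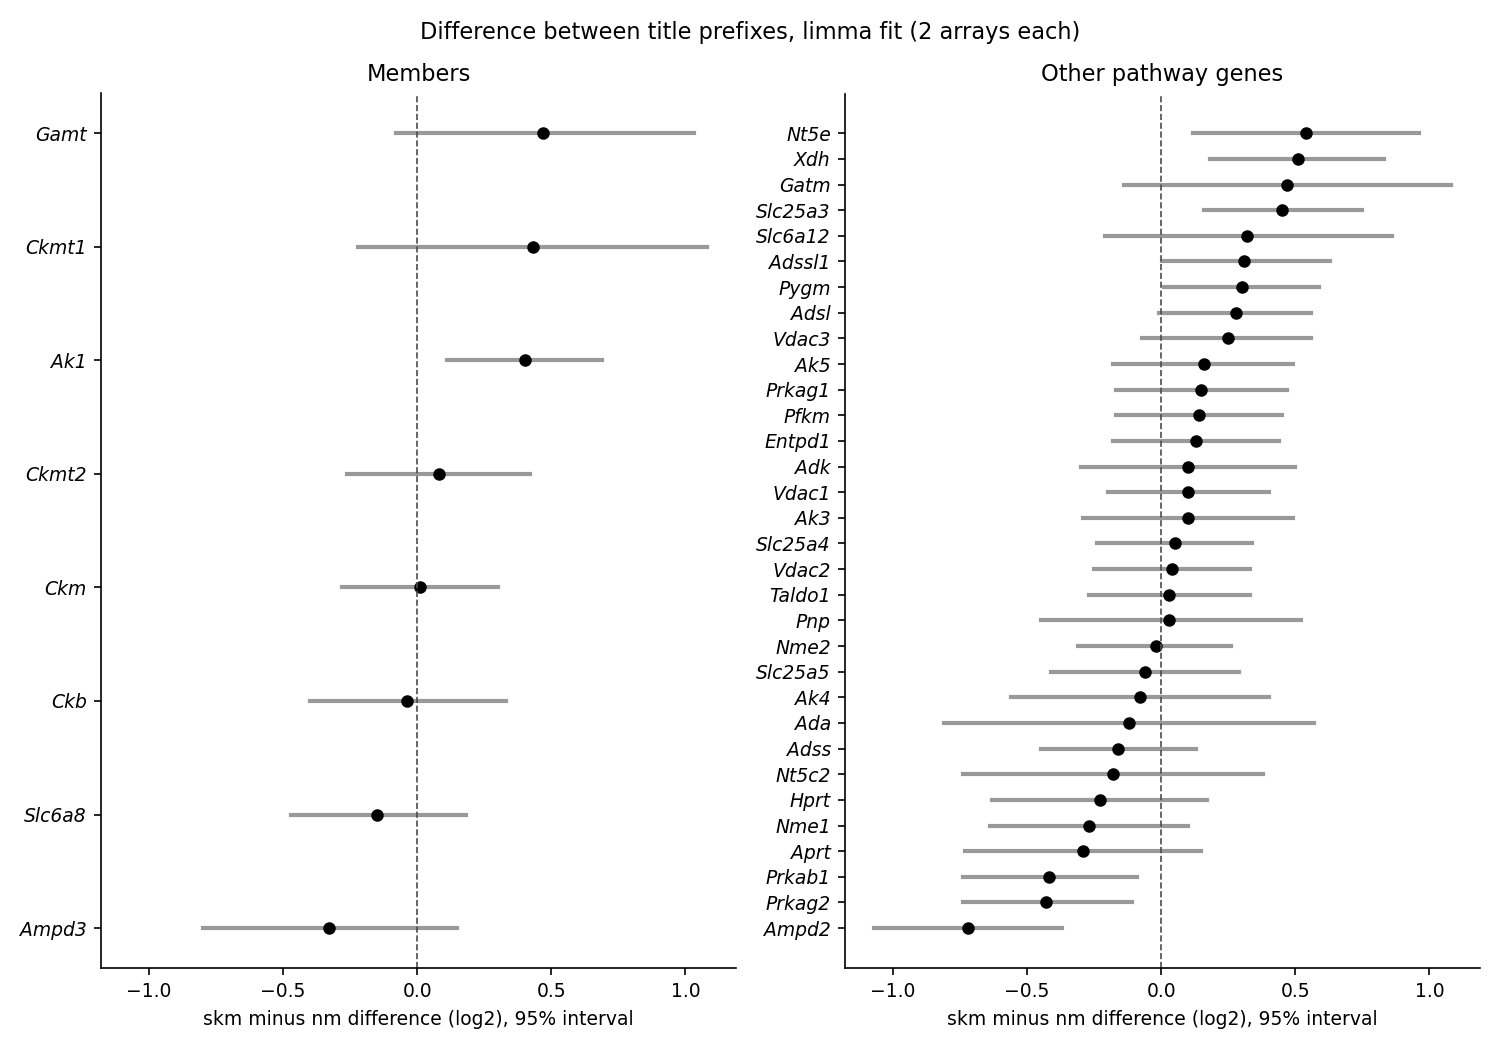
Skm minus nm difference on the log2 scale (horizontal axis) with its 95% interval from the limma fit, for the 8 measured members on the left and 32 other pathway genes on the right, each ordered by the difference. Among the members only the interval of Ak1 excludes 0. On the right 8 intervals exclude 0, among them that of Ampd2 below it and that of Xdh above it. None of the genes shown passed after adjustment over all genes.

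The enzymes that complete the purine nucleotide cycle were picked out with their values known, since Ampd1, its first enzyme in muscle, was not measured. Adssl1, the muscle adenylosuccinate synthase, read 12.87 in skm4 and 12.70 in skm5, against 12.46 in nm7 and 12.48 in nm8, a difference of 0.31 ± 0.12 (limma adjusted p = 0.21). Adsl, the lyase of the same cycle, read 10.78 and 10.73 in skm4 and skm5, against 10.47 and 10.49 in nm7 and nm8, a difference of 0.28 ± 0.12 (limma adjusted p = 0.23). Neither overlapped, as Ak1 did not, and as 54.4% of all genes did not in either direction. Adss, the synthase of other tissues, did not overlap either and was lower in skm at -0.16 ± 0.12. Slc25a4, the muscle ATP and ADP exchanger that feeds Ckmt2, read 14.43 and 14.44 in skm4 and skm5, against 14.38 in both nm arrays, with a difference of 0.05 ± 0.11.

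**Figure D4:**
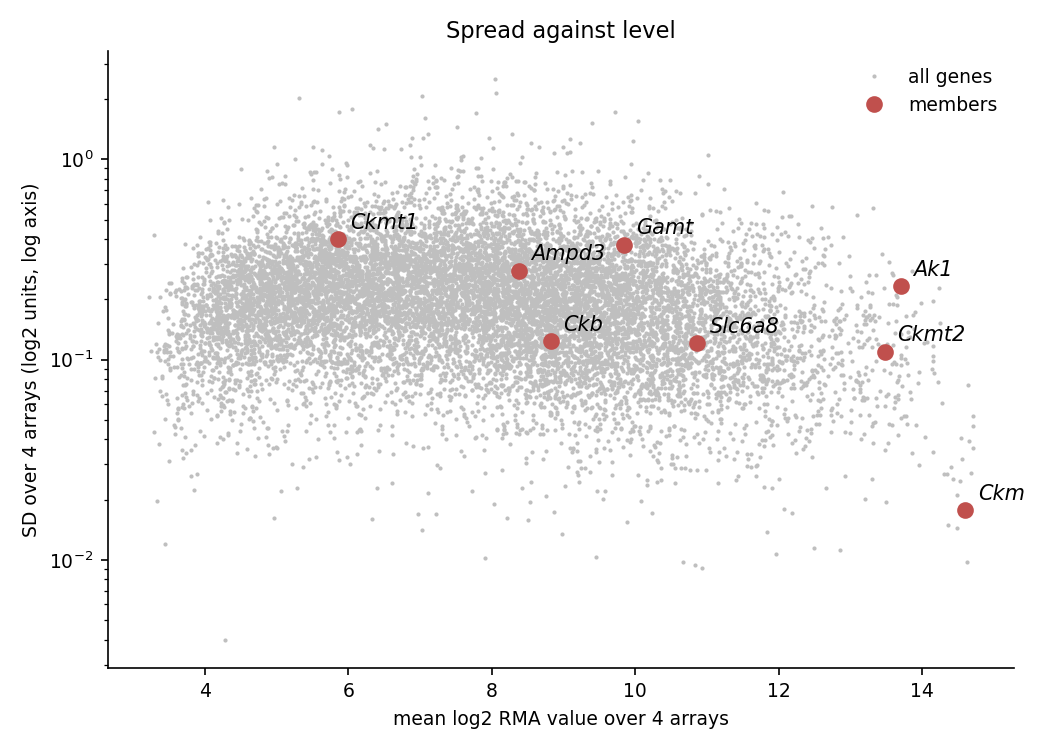
SD over the 4 arrays (vertical axis, log2 units on a log axis) against the mean log2 RMA value (horizontal axis) of 12393 genes in grey, with the 8 measured members in red. Ckm lies at the bright end with an SD of 0.018, Ak1 stands at 0.23 above most genes of its level, and Ckmt1 has the largest SD of the members at 0.40.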

How the data were processed

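The authors deposited log2 expression values per probe set, for which the submitters' processing notes name RMA and Affymetrix Expression Console 1.1. Values from 2.80 to 14.76 showed the log2 scale. Which arrays were normalized together, and the RNA route of each sample, are not given in the sources used here. Of 22690 probe sets, 64 controls were left out, 20380 had 1 gene, 691 several and 1555 none. Symbols came from the platform annotation, updated through Entrez identifiers against GRCm38.p6, and 29 probe sets kept the older symbol. No filter or further normalization was applied.

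The skm minus nm difference was fitted for all genes at once in R 4.3.3 by limma 3.58.1 (linear model with eBayes, 2-sided, Benjamini-Hochberg over 12393 genes, 2 residual and 3.51 prior degrees of freedom). The fit was tested on simulated data. Intervals are 95% with 5.51 degrees of freedom. Replicates may be technical, since the labels name no animals, so p-values reflect the spread among these samples and no wider set. Each SE and p-value is moderated, with the gene's variance drawn towards a value shared by all genes. Ckm, with an SD of 0.018, thus had an SE of 0.12. The number of arrays limits the precision. Summed linear signal is the sum of 2 to the power of each log2 value. Nearest patterns were to be named for members with a range over 1. None had one, so the members without overlap were used, an addition made after seeing the data, as were the shares of dim genes, list sums without the leading gene and the sets of genes of like level. Named genes were all members, up to 6 pathway genes by size of difference and up to 3 by SD, and marker lists by counts. The members and lists were chosen with earlier results of these data known. Alternatives were quantile normalization, median centring, a filter on dim genes, other probe set rules, an intensity trend and leaving out each array.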

Additional observations from a re-analysis of the deposited data

Results flagged for a closer look

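Ckmt1 in skm4 stood apart from the other 3 arrays: its gap to the next array, divided by the whole range, was 0.932, above Dixon's 95% critical value for 4 samples. It read 6.45 in skm4 and 5.68 in skm5, against 5.63 in nm7 and 5.65 in nm8. Chance flags about 1 in 20 such groups, and 4.21% of all genes exceeded the same value. Of all genes that did so on the high side, 104 were high in skm4 and 50 in skm5, against 60 in nm7 and 60 in nm8.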

How the results depend on the processing

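No member had a range over 1 under any alternative run. Of 77 recomputed differences of single members, 67 kept their direction and their side of the threshold, 2 passed it and 8 turned sign. Some of the 77 could not change direction. The filter on dim genes and the intensity trend leave every difference as it was. The probe set rules do so for members that keep the same probe set. Ak1 passed with dim genes left out and with an intensity trend. Members past the threshold numbered 1 of 7 in the first, beside 1026 of 6197 genes, and 1 of 8 in the second, beside 1110 of 12393. Ak1 read -0.04 without probe sets whose names end in _a_at, _s_at or _x_at, which leaves its dimmer probe set. With 1 array left out, Ckm ran from -0.01 (without nm7; -0.004 without skm4) to 0.03, Ckmt2 from -0.04 (without nm8) to 0.20, and Ckb from -0.18 to 0.11 (without nm8; 0.01 without skm4). Ckb turned to 0.01 with quantile normalization and Slc6a8 to 0.01 with the mean of probe sets. Single arrays carried several SDs: that of Ckmt2 was 0.026 and of Ckb 0.076 without nm8, of Slc6a8 0.051 without skm5, and of Ampd3 0.13 and Gamt 0.16 without nm7. Members without overlap numbered 3 of 8 with quantile normalization and with median centring, beside 53.7% and 54.2% of all genes. With dim genes left out they numbered 3 of 7, beside 63.7%. They numbered 2 of 8 with the mean of probe sets, beside 53.4%, and 2 of 6 without probe sets of those name endings, beside 53.6%. With 1 array left out they numbered 4 to 8, beside 76.1% to 79.5%. Over all genes, the 4 past the threshold became 186 with quantile normalization and 1026 with dim genes left out. They became 92 with the mean of probe sets and 78 without probe sets of those name endings. They became 1110 with an intensity trend, 308 for probe sets in place of genes, and 0 to 15 with 1 array left out. The filter left 3946 genes without overlap, of 6736, and 291 with a range over 1, of 741, a number that was 429 to 546 with 1 array left out. It removed Ckmt1, and the rule on name endings removed Ckmt1 and Ckb. The member probe sets that this rule removed all end in _a_at. With 1 array left out, the lone array of a prefix is assumed to vary like the others. No paired analysis was possible because all samples form 1 group.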

Other observations

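Patterns nearest to those of the other members without overlap were as follows, by root mean square distance of centred values over the 4 arrays. For Ckmt1, Gpa33 lay at 0.023, Cpb1 at 0.034 and Hmx3 at 0.038, and 43 genes lay within 0.1. Gpa33 read 7.08 in skm4 and 6.29 in skm5, against 6.20 in nm7 and 6.28 in nm8. Cpb1 read 5.66 in skm4 and 4.97 in skm5, against 4.86 in nm7 and 4.93 in nm8. Hmx3 read 4.37 in skm4 and 3.70 in skm5, against 3.64 in nm7 and 3.63 in nm8. The background controls read 3.40 to 4.05, so Hmx3 lay near the background. For Gamt, Tnfrsf8 lay at 0.015, Tead2 at 0.036 and Dcaf15 at 0.047, and 29 genes lay within 0.1. For Slc6a8, whose probe sets disagree, 1708 genes lay within 0.1. The SD of Slc6a8 was 0.12, close to that limit, so genes that vary little can be counted. Its count cannot be compared with those of Ckmt1 and Gamt.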
